A study of Mus musculus with 6 samples.

Results

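The BCL2 family sets whether a cell keeps its mitochondria sealed or opens them and dies, and 10 of its genes were followed here by gene symbol out of 21936 genes listed for each library. They were 6 pro-survival genes (Bcl2, Bcl2l1, Mcl1, Bcl2a1a, Bcl2a1b and Bcl2a1d), 2 pore-forming genes (Bax and Bak1) and 2 genes for activators that carry a BH3 domain alone (Bcl2l11 and Bbc3). All 10 symbols were found, each in a single row. RNA was sequenced from macrophages that had been sorted from mice kept on a high-fat diet for 4 months. The libraries labelled CKO (n = 3) came from ALKBH5flox/flox, Lyz2-Cre, APOE-/- mice, in which Cre made from the Lyz2 locus acts in myeloid cells, and those labelled WT (n = 3) from ALKBH5flox/flox, APOE-/- mice without Cre. Both groups thus shared the loxP-flanked Alkbh5, the Apoe deletion and the diet. The labels name neither the tissue nor the sorting markers nor whether each library came from its own animal, so a p-value here reflects how far these libraries spread, part of which may be technical.

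Proteins of the family act on the outer mitochondrial membrane. BAX and BAK assemble into pores that release cytochrome c, the pro-survival proteins hold them in check, and BH3-only proteins such as BIM (Bcl2l11) and PUMA (Bbc3) bind and disarm the pro-survival proteins or activate BAX and BAK directly. In macrophages MCL1 and A1, the protein made by the Bcl2a1 genes, are known as survival factors with short half-lives, and A1 is an NF-kB target. Mice carry several near-identical copies of Bcl2a1, whereas humans carry a single BCL2A1 gene.

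Levels are deposited FPKM, reads scaled to the listed gene length and to the assigned reads of the library, with 15422154 to 18418903 reads per library. Alkbh5 went against the label, at 9.15, 8.61 and 8.50 FPKM in the libraries labelled CKO against 3.77, 3.95 and 3.88 FPKM in those labelled WT. Apoe, labelled null in both groups, stood at 89.6 to 98.1 FPKM in the libraries labelled CKO and at 1607 to 1665 FPKM in those labelled WT. These values count reads over whole genes and cannot show whether a transcript was intact. Whether the labels match the genotypes was not tested, and directions therefore refer to the libraries as labelled. Marker lists of other cells moved with the groups, and their part in the results was not tested. All 8 macrophage markers were expressed in both groups, but 5 rose (Adgre1, Csf1r, Itgam, Fcgr1 and Cd14) and 3 fell (Cd68, Mertk and Lyz2), and their sum was 9217 to 9644 FPKM in the libraries labelled CKO and 16351 to 18265 FPKM in those labelled WT, most of it Lyz2. The 10 neutrophil markers summed to 102 to 115 FPKM in the libraries labelled CKO and 653 to 937 FPKM in those labelled WT, with Ly6g listed at 0 in all 3 libraries labelled CKO and in 2 of the 3 labelled WT. T cell markers summed to 48.6 to 50.4 FPKM in the libraries labelled CKO and 83.7 to 87.3 FPKM in those labelled WT, nearly all of it Il7r, with Cd3e, Cd3d and Cd3g below 1 FPKM in every library and Cd4 at 0.483 FPKM in the libraries labelled CKO and 3.94 FPKM in those labelled WT on average. Of 6 dendritic cell markers Ccr7 alone reached 1 FPKM, at 21.1 ± 1.81 FPKM in the libraries labelled CKO and 0.742 ± 0.0497 FPKM in those labelled WT (SD, n = 3 each). Below 1 FPKM, Clec9a and Siglech averaged 0.109 and 0.0119 FPKM in the libraries labelled CKO and 0.615 and 0.372 FPKM in those labelled WT. Xcr1 and Zbtb46 went the other way, at 0.274 and 0.301 FPKM in the libraries labelled CKO and 0.0340 and 0.0490 FPKM in those labelled WT. Flt3 overlapped between the groups. Sums in the libraries labelled CKO were also lower for mast cell and basophil markers (1.38 to 1.69 FPKM, against 6.12 to 6.24 FPKM in those labelled WT) and for B cell markers (1.02 to 1.82 FPKM, against 2.11 to 3.77 FPKM in those labelled WT). Endothelial and smooth muscle markers summed to 10.5 to 11.8 FPKM in the libraries labelled CKO and 27.3 to 28.0 FPKM in those labelled WT. In the libraries labelled WT most of that sum was Vwf, at 19.8 FPKM on average, against 2.78 FPKM in those labelled CKO. Kdr was lower in the libraries labelled CKO too (3.94 against 5.89 FPKM), whereas Acta2 (2.82 against 0.989 FPKM), Pecam1 (1.47 against 0.880 FPKM) and Cdh5 (0.156 against 0.0623 FPKM) were higher.

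The sequences upstream of the Bcl2a1 copies are shown first because these genes lie near each other on chromosome 9, resemble each other closely and yet stood at very different levels. Each window runs from 250 bases before to 50 after a RefSeq start (build GRCm38.p6, the NCBI name of mm10), 5′ to 3′ on the gene's strand. Capitals mark a match to TGANTCA, a loose form of the AP-1 site in which N is any base.
Bcl2a1a (chr9:88956670-88956969, plus strand): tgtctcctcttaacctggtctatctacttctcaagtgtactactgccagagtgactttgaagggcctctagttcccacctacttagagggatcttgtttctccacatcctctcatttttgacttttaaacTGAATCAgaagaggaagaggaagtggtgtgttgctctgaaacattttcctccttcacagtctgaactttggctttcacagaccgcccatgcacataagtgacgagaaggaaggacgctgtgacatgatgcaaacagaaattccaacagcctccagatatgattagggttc
Bcl2a1b (chr9:89199023-89199322, plus strand): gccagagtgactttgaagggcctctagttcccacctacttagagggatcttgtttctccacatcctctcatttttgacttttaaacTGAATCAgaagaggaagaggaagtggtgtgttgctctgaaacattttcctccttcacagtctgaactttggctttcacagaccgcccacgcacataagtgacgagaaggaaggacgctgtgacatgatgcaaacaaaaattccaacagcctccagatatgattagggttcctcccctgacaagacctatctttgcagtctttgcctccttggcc
Bcl2a1d (chr9:88731801-88732100, minus strand): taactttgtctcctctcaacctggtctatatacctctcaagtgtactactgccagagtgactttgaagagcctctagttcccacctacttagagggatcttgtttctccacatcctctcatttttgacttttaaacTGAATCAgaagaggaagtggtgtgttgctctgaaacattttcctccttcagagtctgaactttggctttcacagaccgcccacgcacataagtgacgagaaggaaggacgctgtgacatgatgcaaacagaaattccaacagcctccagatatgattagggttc
All 3 windows held the same 7 letters, TGAATCA, beginning 120 bases before the start in Bcl2a1a, 164 before it in Bcl2a1b and 114 before it in Bcl2a1d. Of 32817 promoter windows of this length 7.81% held a match to TGANTCA, which reads the same on both strands apart from its middle base. The windows of Bcl2a1a and Bcl2a1d were identical at 94.1% of aligned positions, gaps counted as differences. That of Bcl2a1b aligned with them over 73.8% (Bcl2a1a) and 70.6% (Bcl2a1d) of positions, with 88 and 100 gap bases, since its annotated start lies further downstream in the same stretch. A match describes letters and is neither a shown binding site nor a cause.

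Mcl1 was the most abundant member in every library and was higher in those labelled CKO. It read 425, 399 and 417 FPKM in the libraries labelled CKO, against 298, 325 and 332 FPKM in those labelled WT (chromosome 3, 95658788 to 95663176, mm10). All 3 libraries labelled CKO lay above all 3 labelled WT, although the libraries of a group also differed among themselves. This was a 1.30-fold difference of the means and 0.38 on the log2 scale (SE 0.041, limma adjusted p = 5.02e-06), and 0.11 after quantile normalization (limma adjusted p = 0.0170). Fold changes here and below are on log2(FPKM + 1), which understates those of low genes, and run as labelled CKO minus labelled WT. In bulk RNA a difference in the mix of cells and a difference in RNA per cell cannot be told apart.

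Bcl2a1a and Bcl2a1d had the largest fold changes of the 9 members that could be tested. Bcl2a1a read 23.9, 19.9 and 20.9 FPKM in the libraries labelled CKO, against 2.19, 2.38 and 1.69 FPKM in those labelled WT (chromosome 9, 88956900 to 88962419). The lowest library labelled CKO stood far above the highest labelled WT. The difference was 10.3-fold on the means and 2.87 on the log2 scale (SE 0.088, limma adjusted p = 6.98e-11), and 98.3% of all tested genes had a lower fold change. Behind it were 335, 251 and 305 reads in the libraries labelled CKO and 33, 35 and 23 in those labelled WT. Bcl2a1d was the more abundant copy, at 40.5, 43.4 and 50.1 FPKM in the libraries labelled CKO against 19.3, 18.2 and 14.7 FPKM in those labelled WT (chromosome 9, 88723285 to 88731914). Its groups did not overlap either, and it rose by 1.31 on the log2 scale (SE 0.093, limma adjusted p = 1.20e-07), 2.56-fold on the means. Bcl2a1b was close to the limit of detection, at 1.14, 1.19 and 0.894 FPKM in the libraries labelled CKO against 0.864, 0.205 and 0.220 FPKM in those labelled WT (chromosome 9, 89199209 to 89207827). That is 16, 15 and 13 reads in the libraries labelled CKO against 13, 3 and 3 in those labelled WT, and WT replicate 1 stood near the libraries labelled CKO. Bcl2a1b reached 1 FPKM in 2 libraries, short of the 3 needed, and was not tested. Bcl2a1c, a further copy that is not among the 10, was listed at 0 in all 6 libraries.

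Reads of the copies could be split between rows. Their annotated transcripts of 819, 817 and 863 bases (Bcl2a1a, Bcl2a1b and Bcl2a1d; GENCODE M21) were 93.7% to 97.9% identical in pairs. Of the distinct 50-base words in a transcript 31.0% were unique to Bcl2a1a among the copies, 42.4% to Bcl2a1b and 20.5% to Bcl2a1d. With 100-base words these shares were 56.5%, 68.9% and 45.3%, and the read length is not given in the sources used here. Bcl2a1b also shared 401 of its 817 exon bases with Gm29094, a gene on the same strand that was listed at 0 in every library, and what that does to its reads was not tested. Summed over the copies, Bcl2a1 stood at 65.5, 64.4 and 71.9 FPKM in the libraries labelled CKO, against 22.4, 20.8 and 16.7 FPKM in those labelled WT. Moving reads between these rows leaves the sum nearly as it is, since their lengths are close, and the sum rose by 1.71 on the log2 scale (limma adjusted p = 5.43e-09). Any reads left out of the counting because they matched several copies would be missing from the sum as well. Within the sum Bcl2a1a made up 36.4%, 30.8% and 29.1% in the libraries labelled CKO, against 9.78%, 11.5% and 10.1% in those labelled WT. Bcl2a1 is also known to be expressed in neutrophils. The neutrophil markers had a lower sum in the libraries labelled CKO, and the 4 that reached 1 FPKM in both groups (S100a8, S100a9, Camp and Csf3r) were called lower, as 50.5% of all tested genes were. Elane, Ngp and Ltf were called lower too, but entered the test solely through the libraries labelled WT. The share of Bcl2a1 reads from such cells was not tested.

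The remaining pro-survival genes were Bcl2, the founding member, and Bcl2l1, which encodes BCL-XL. Bcl2 read 1.10, 1.01 and 1.13 FPKM in the libraries labelled CKO, against 0.462, 0.529 and 0.577 FPKM in those labelled WT (chromosome 1, 106538178 to 106714274). The groups did not overlap, with 143 to 185 reads a library labelled CKO and 78 to 88 a library labelled WT. It was higher by 0.45 on the log2 scale (SE 0.065, limma adjusted p = 5.38e-05) and by 1.06 with limma voom on reads, which adds no pseudocount of this size, but Bcl2 entered the test solely through the group in which it was higher, and it was not among the genes with a mean of at least 5 FPKM. Bcl2l1 read 17.1, 15.5 and 16.4 FPKM in the libraries labelled CKO, against 16.4, 17.1 and 16.4 FPKM in those labelled WT (chromosome 2, 152780668 to 152831728). The ranges overlapped, and the log2 fold change was -0.03 (95% interval -0.12 to 0.07, limma adjusted p = 0.608), but 0.15 after median-of-ratios scaling (limma adjusted p = 0.0113).

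**Figure D1:**
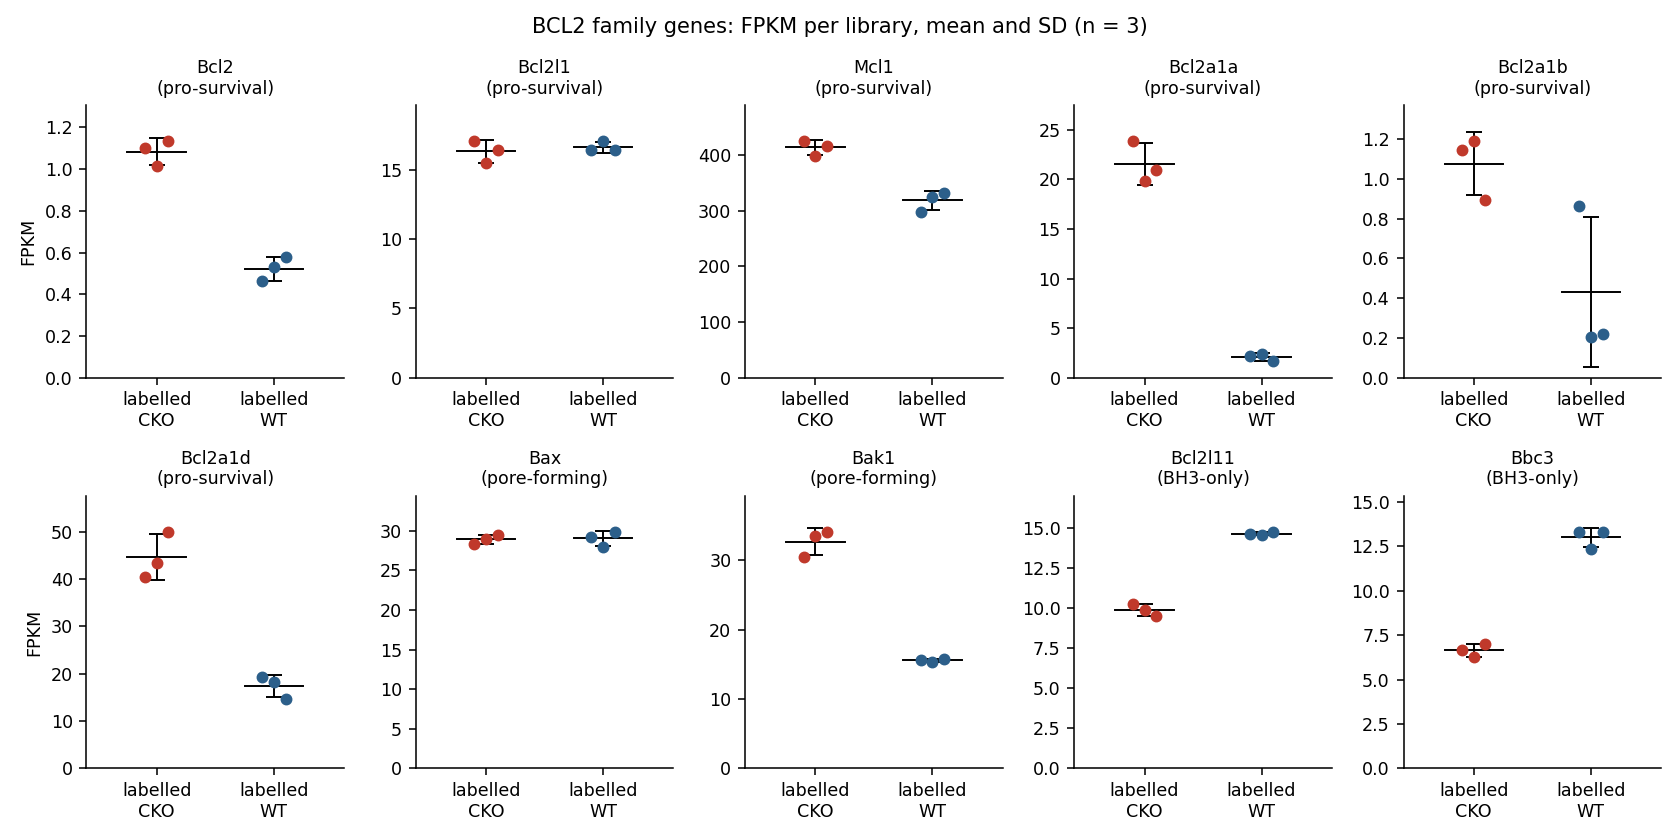
FPKM of the 10 BCL2 family genes in each library (points), with the mean and SD of 3 libraries labelled CKO (left in each panel) and 3 labelled WT (right); the vertical axes start at 0 and differ between panels. Bcl2a1a stood at 19.9 to 23.9 FPKM in the libraries labelled CKO and 1.69 to 2.38 FPKM in those labelled WT, Bax and Bcl2l1 overlapped between the groups, and Bcl2l11 and Bbc3 were lower in the libraries labelled CKO.

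The 2 pore-forming genes parted. Bak1, which encodes BAK, read 30.6, 33.5 and 34.2 FPKM in the libraries labelled CKO, against 15.6, 15.3 and 15.8 FPKM in those labelled WT (chromosome 17, 27019810 to 27029009). The groups were far apart, by 2.10-fold on the means and 1.02 on the log2 scale (SE 0.045, limma adjusted p = 1.66e-09). Of the 2407 exon bases of Bak1, 614 also lie in exons on the opposite strand. GENCODE M21 names these Ggnbp1, with 437 and 177 bases under separate gene identifiers. Ggnbp1 stood at 0.107 to 0.266 FPKM over the 6 libraries. Gm50253, whose listed position spans Bak1, was listed at 0 in every library. The strand setting of the counting is not given in the sources used here. Bax read 28.3, 28.9 and 29.4 FPKM in the libraries labelled CKO, against 29.2, 27.9 and 29.9 FPKM in those labelled WT (chromosome 7, 45461697 to 45466898). These ranges overlapped almost fully, and the log2 fold change was -0.01 (95% interval -0.09 to 0.08, limma adjusted p = 0.890), but 0.17 after median-of-ratios scaling (limma adjusted p = 0.00117). Of the 1576 exon bases of Bax, 192 are shared with Gm45808, a gene on the same strand listed at 0 in every library. What that does to the reads of Bax was not tested.

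A ratio within a library does not depend on scaling between libraries, so the change in balance between Bax and Bak1 can be read without that choice. Bax over Bak1 was 0.927, 0.864 and 0.862 in the libraries labelled CKO, against 1.87, 1.82 and 1.90 in those labelled WT. Per length and as counted, Bax mRNA thus stood below Bak1 mRNA in the libraries labelled CKO and above it in those labelled WT. This held in each of the 3 libraries of either group. Any reads left out over the shared exon bases of either gene would move the level of this ratio, which was not tested. The exact two-sided permutation test for single members gave p = 0.1 wherever the groups did not overlap, the smallest that 3 against 3 libraries allow.

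Both BH3-only members were lower in the libraries labelled CKO. Bbc3, known as a p53 target, read 6.65, 6.29 and 7.01 FPKM in the libraries labelled CKO, against 13.3, 12.4 and 13.3 FPKM in those labelled WT (chromosome 7, 16308393 to 16318205). No library labelled CKO reached the level of any labelled WT, and Bbc3 was 1.96-fold lower on the means (-0.87 on the log2 scale, SE 0.051, limma adjusted p = 2.28e-08). Bcl2l11 read 10.3, 9.88 and 9.51 FPKM in the libraries labelled CKO, against 14.6, 14.6 and 14.8 FPKM in those labelled WT (chromosome 2, 128126038 to 128162547). These groups were separate as well, and Bcl2l11 was 1.48-fold lower on the means (-0.52 on the log2 scale, SE 0.042, limma adjusted p = 3.92e-07). Together the pair summed to 16.9, 16.2 and 16.5 FPKM in the libraries labelled CKO, against 28.0, 27.0 and 28.1 FPKM in those labelled WT.

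The promoter windows of these genes that matched the FOXO core GTAAACA are shown because both genes are known FOXO3 targets. Both were called lower, as 50.5% of all tested genes were. Capitals mark the match, which lies on the opposite strand in Bbc3 and there reads TGTTTAC.
Bcl2l11, first of 2 windows (chr2:128125788-128126087, plus strand): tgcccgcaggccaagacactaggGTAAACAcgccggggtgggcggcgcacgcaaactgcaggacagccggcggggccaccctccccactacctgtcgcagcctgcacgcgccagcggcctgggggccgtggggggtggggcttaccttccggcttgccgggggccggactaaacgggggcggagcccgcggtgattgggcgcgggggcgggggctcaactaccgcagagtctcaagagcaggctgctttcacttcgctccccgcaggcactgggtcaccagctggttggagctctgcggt
Bbc3, second of 3 windows (chr7:16310011-16310310, plus strand): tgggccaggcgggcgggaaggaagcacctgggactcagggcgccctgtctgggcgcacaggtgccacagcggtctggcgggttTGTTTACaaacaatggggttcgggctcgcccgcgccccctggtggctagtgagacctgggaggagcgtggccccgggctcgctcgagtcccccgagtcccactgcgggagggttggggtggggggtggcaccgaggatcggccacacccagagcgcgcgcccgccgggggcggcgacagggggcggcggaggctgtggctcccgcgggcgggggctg
The match began 227 bases before the start in Bcl2l11 and 167 before it in Bbc3, and 3.65% of all promoter windows held one on either strand. That share is per window, whereas Bcl2l11 had 2 windows and Bbc3 had 3. Foxo3 itself read 10.9 ± 0.372 FPKM in the libraries labelled CKO and 15.9 ± 0.366 FPKM in those labelled WT (SD, n = 3 each; log2 fold change -0.50, limma adjusted p = 5.39e-07). Trp53, the gene of p53, read 12.2 ± 0.584 FPKM in the libraries labelled CKO and 17.7 ± 0.122 FPKM in those labelled WT (log2 fold change -0.51, limma adjusted p = 6.22e-07). A part of either factor in the levels of Bcl2l11 and Bbc3 was not tested. Of the other windows of the 10 members, the NF-kB consensus matched in 1 of Bcl2l1 and 1 of Bbc3 (8.46% of all windows) and the p53 half-site in that of Bax (8.36%). The ISRE core, the STAT site TTCNNNGAA and the CRE TGACGTCA, which were matched by 3.43%, 8.29% and 1.79% of all windows, were not found in the 15 windows of the members. These windows are short, and no match says nothing about a factor.

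Of the 10 members 9 could be tested, and 5 were called higher (Mcl1, Bcl2a1a, Bcl2a1d, Bcl2 and Bak1) and 2 lower (Bbc3 and Bcl2l11) at a limma adjusted p under 0.05. Among all 9953 genes tested 81.1% were called, 30.5% higher and 50.5% lower, so a call as such sets no member apart. The 2 groups did not overlap for 7 of the 9, where 82.5% of all tested genes did not overlap. Bcl2 is in both counts, although it entered the test solely through the libraries labelled CKO, where it was higher. The median log2 fold change was 0.38 over the 9 members and -0.14 over all tested genes, with Bcl2 included. After median-of-ratios scaling, which shifted the median gene by 0.16, 7 members were called higher and 2 lower, against 40.8% and 38.9% of all genes; Bax and Bcl2l1 were the additional calls. After quantile normalization 5 members were called higher and 2 lower, against 35.9% and 43.5% of all genes.

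**Figure D2:**
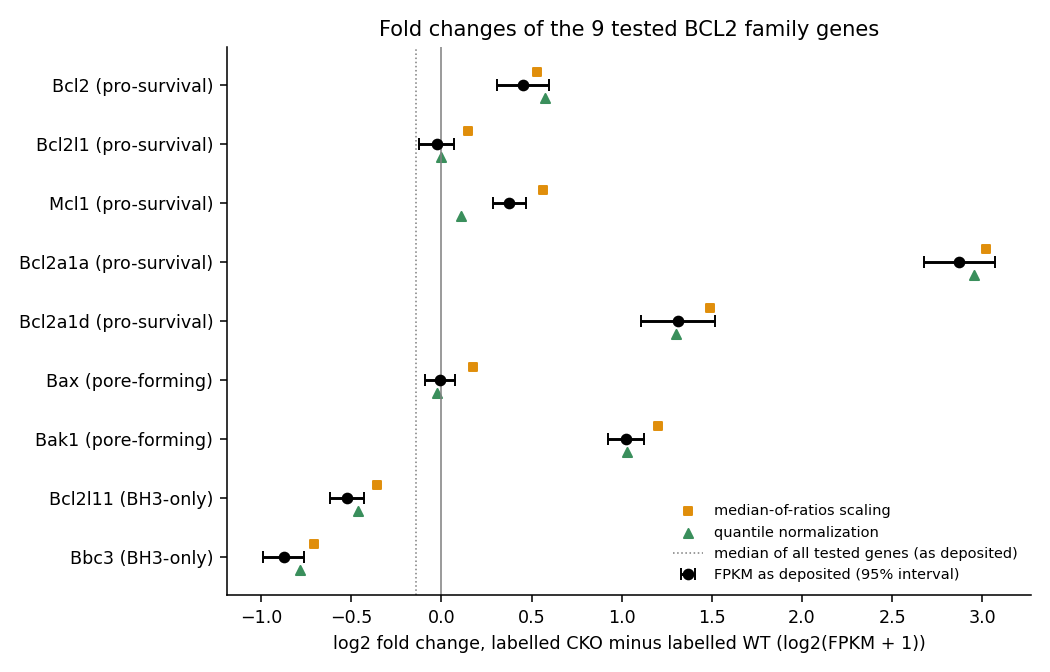
Log2 fold change on log2(FPKM + 1), labelled CKO minus labelled WT, for the 9 tested members with FPKM as deposited (circles, 95% interval) and under 2 other scalings (squares and triangles, no interval drawn); the dotted line is the median of all tested genes, -0.14. Bcl2a1a (2.87) lay furthest to the right and Bbc3 (-0.87) furthest to the left, and Bax and Bcl2l1 lay at -0.01 and -0.03 as deposited and at 0.17 and 0.15 after median-of-ratios scaling.

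The order of the members by level differed between the groups. In the libraries labelled CKO the means fell in the order Mcl1 (414 FPKM), Bcl2a1d (44.6), Bak1 (32.7), Bax (28.9), Bcl2a1a (21.6), Bcl2l1 (16.3), Bcl2l11 (9.89), Bbc3 (6.65), Bcl2 (1.08) and Bcl2a1b (1.08). In those labelled WT the order was Mcl1 (318 FPKM), Bax (29.0), Bcl2a1d (17.4), Bcl2l1 (16.6), Bak1 (15.6), Bcl2l11 (14.7), Bbc3 (13.0), Bcl2a1a (2.08), Bcl2 (0.523) and Bcl2a1b (0.430). Neighbours in these orders whose ranges overlapped were Bcl2 and Bcl2a1b in both groups, and Bcl2a1d and Bcl2l1 in the libraries labelled WT. Bcl2a1a stood above Bcl2l1, Bcl2l11 and Bbc3 in the libraries labelled CKO and below all 3 in those labelled WT.

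Mcl1 alone accounted for most of the summed FPKM of the 10 members, with 72.7%, 71.4% and 71.1% in the libraries labelled CKO and 72.7%, 74.9% and 75.6% in those labelled WT, which overlapped. The 6 pro-survival genes summed to 509, 480 and 506 FPKM in the libraries labelled CKO, against 338, 363 and 366 FPKM in those labelled WT. Divided by the summed pore-forming and BH3-only genes this gave 6.71, 6.11 and 6.32 in the libraries labelled CKO, against 4.64, 5.17 and 4.96 in those labelled WT. Without Mcl1 the pro-survival genes gave a ratio of 1.10, 1.03 and 1.12 in the libraries labelled CKO, against 0.539, 0.546 and 0.456 in those labelled WT. The groups did not overlap in either ratio. The summed pore-forming and BH3-only genes themselves stood close, at 75.8, 78.5 and 80.1 FPKM in the libraries labelled CKO against 72.8, 70.2 and 73.8 FPKM in those labelled WT, since Bak1 was higher while Bbc3 and Bcl2l11 were lower. These are sums of mRNA levels, described without a test, and carry no weight for how strongly each protein binds or how long it lasts. Both ratios hold members alone, with Bcl2l11 and Bbc3 as the BH3-only genes and without the pro-survival Bcl2l2. The 6 other BH3-only genes summed to 40.6 to 45.2 FPKM in the libraries labelled CKO and 38.8 to 40.9 FPKM in those labelled WT. These ranges overlapped, and the level of either ratio depends on which genes are included.

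**Figure D3:**
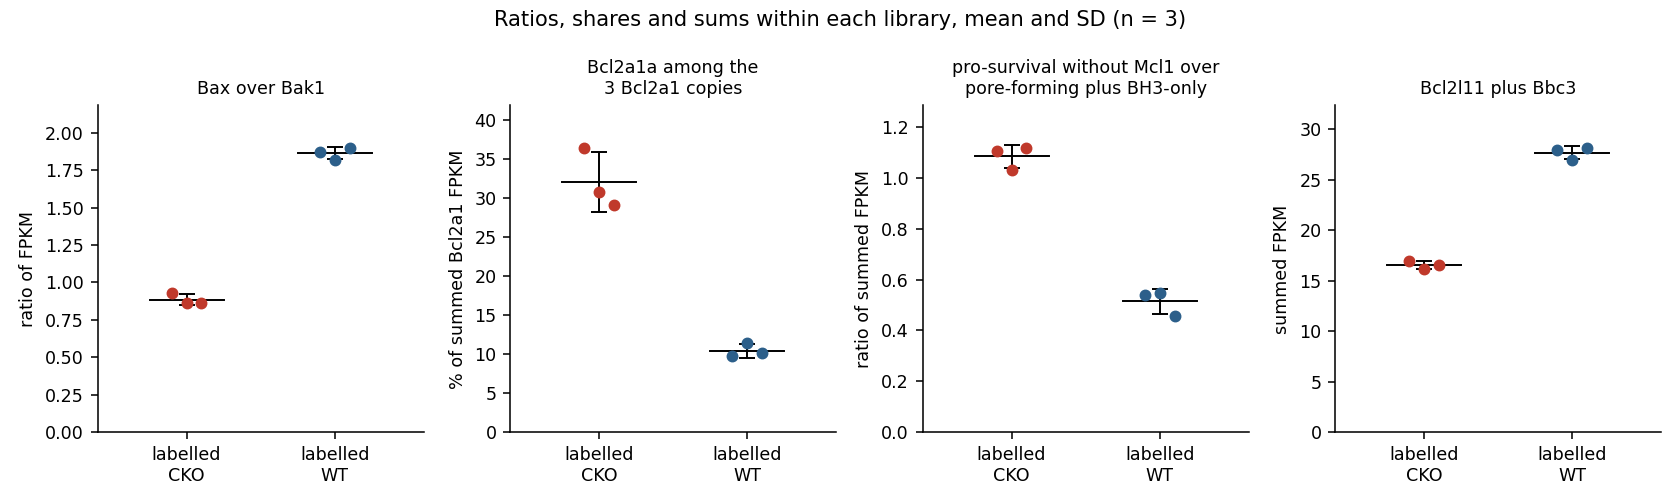
Values formed within each library (points), with the mean and SD of 3 libraries labelled CKO (left in each panel) and 3 labelled WT (right): Bax over Bak1, the share of Bcl2a1a in the summed Bcl2a1 copies, pro-survival members without Mcl1 over pore-forming plus BH3-only members, and the summed FPKM of the BH3-only members Bcl2l11 and Bbc3. Bax over Bak1 was 0.862 to 0.927 in the libraries labelled CKO and 1.82 to 1.90 in those labelled WT, and no panel shows overlap between the groups.

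Other genes of the apoptosis pathway went both ways, with 22 of 42 tested genes higher, 14 lower and 6 not called, out of 51 listed, and a median log2 fold change of 0.23. Over all tested genes 81.1% were called, 30.5% higher and 50.5% lower, with a median of -0.14, so that the share called lies near that of all genes. Among further BCL2 relatives, the pro-survival Bcl2l2 rose by 0.53 on the log2 scale (limma adjusted p = 9.09e-06). Bmf, a BH3-only gene, fell to 1.79 ± 0.0418 FPKM in the libraries labelled CKO, against 7.15 ± 0.0311 FPKM in those labelled WT (SD, n = 3 each; log2 fold change -1.55, limma adjusted p = 1.12e-10). It thus moved with Bcl2l11 and Bbc3, whereas the BH3-only genes Bid and Bad rose by 0.36 and 0.42 and Pmaip1, the gene of NOXA, was not called, with a log2 fold change of -0.03 (limma adjusted p = 0.652). Bik and Hrk did not pass the filter, nor did Bok, a further pore-forming relative, and Bcl2l10 was listed at 0. Of 4 tested atypical relatives 3 rose, led by Bnip3, a mitochondrial receptor known as a hypoxia target, at 46.9 ± 5.43 FPKM in the libraries labelled CKO and 2.37 ± 0.384 FPKM in those labelled WT (log2 fold change 3.83, limma adjusted p = 8.29e-12). Its relatives Bnip3l and Bcl2l13 rose by 0.23 and 0.25, and Bcl2l12 was not called.

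Downstream of the mitochondria Cycs and Apaf1 rose and Casp9 fell. Cycs, which encodes cytochrome c, read 39.4 ± 1.35 FPKM in the libraries labelled CKO and 15.1 ± 0.446 FPKM in those labelled WT (log2 fold change 1.33, limma adjusted p = 5.39e-11). Apaf1, the scaffold it binds, rose by 0.23, while Casp9, the caspase activated there, changed by -0.55 (limma adjusted p = 1.33e-05). Casp6, which encodes a caspase, was not called (log2 fold change -0.14, limma adjusted p = 0.0636), and Dffa and Dffb, which encode the inhibitor and the nuclease that cuts DNA, changed by -0.54 and -0.36. Without CKO replicate 3 Casp6 was called lower, at -0.19 (limma adjusted p = 0.0209), and after quantile normalization Dffb was not called, at -0.20 (limma adjusted p = 0.0923). Of 5 inhibitor of apoptosis genes Birc3 and Birc2 rose by 2.16 and 0.72, Birc5 and Xiap changed by -1.21 and -0.48, and Birc6 was not called. Birc5 entered the test solely through the libraries labelled WT, where it was higher.

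Of 7 tested death receptor genes 4 rose and 2 fell, where 30.5% of all tested genes rose and 50.5% fell. Fas, the receptor for Fas ligand, read 46.9 ± 2.08 FPKM in the libraries labelled CKO and 6.86 ± 0.284 FPKM in those labelled WT (log2 fold change 2.61, limma adjusted p = 6.29e-13). Cflar, which encodes the caspase-8 inhibitor FLIP, read 44.0 ± 0.955 FPKM in the libraries labelled CKO and 10.8 ± 0.163 FPKM in those labelled WT (log2 fold change 1.93, limma adjusted p = 1.07e-12). Casp8 rose by 0.58 and Tnfrsf1a, a TNF receptor, by 0.44, Ripk1 and Fadd changed by -0.50 and -0.42, and Tradd was not called. Vdac1 and Vdac3, channels of the outer mitochondrial membrane, rose by 0.80 and 0.93. Vdac2, known to hold BAK at that membrane, changed by -0.13 (limma adjusted p = 0.00625), but by 0.055 after median-of-ratios scaling, where it was not called (limma adjusted p = 0.184).

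Genes known to act on the members were read beside them, and an effect on the members was not tested. Of those for MCL1 turnover, Fbxw7, which encodes a ubiquitin ligase subunit that marks MCL1 for breakdown, read 3.66 ± 0.440 FPKM in the libraries labelled CKO and 7.62 ± 0.176 FPKM in those labelled WT (log2 fold change -0.89, limma adjusted p = 2.21e-07). Huwe1, a further ligase for MCL1, changed by -0.26 (limma adjusted p = 4.24e-04), but by -0.08 after median-of-ratios scaling, where it was not called (limma adjusted p = 0.120). Usp9x, which removes ubiquitin from MCL1, was not called, with a log2 fold change of -0.04 as deposited (limma adjusted p = 0.374) and 0.13 after median-of-ratios scaling (limma adjusted p = 0.0203). Among 8 factors known to drive genes of the family 5 rose and 3 fell, where 81.1% of all tested genes were called. Hif1a rose by 1.34, Ddit3, the stress factor CHOP, by 0.97, Rela and Nfkb1, subunits of NF-kB, by 0.70 and 0.23, and Stat3 by 0.64. Stat5a read 3.69 ± 0.121 FPKM in the libraries labelled CKO and 7.79 ± 0.191 FPKM in those labelled WT (log2 fold change -0.91, limma adjusted p = 1.10e-08) and was called lower, as were Trp53 and Foxo3.

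**Figure D4:**
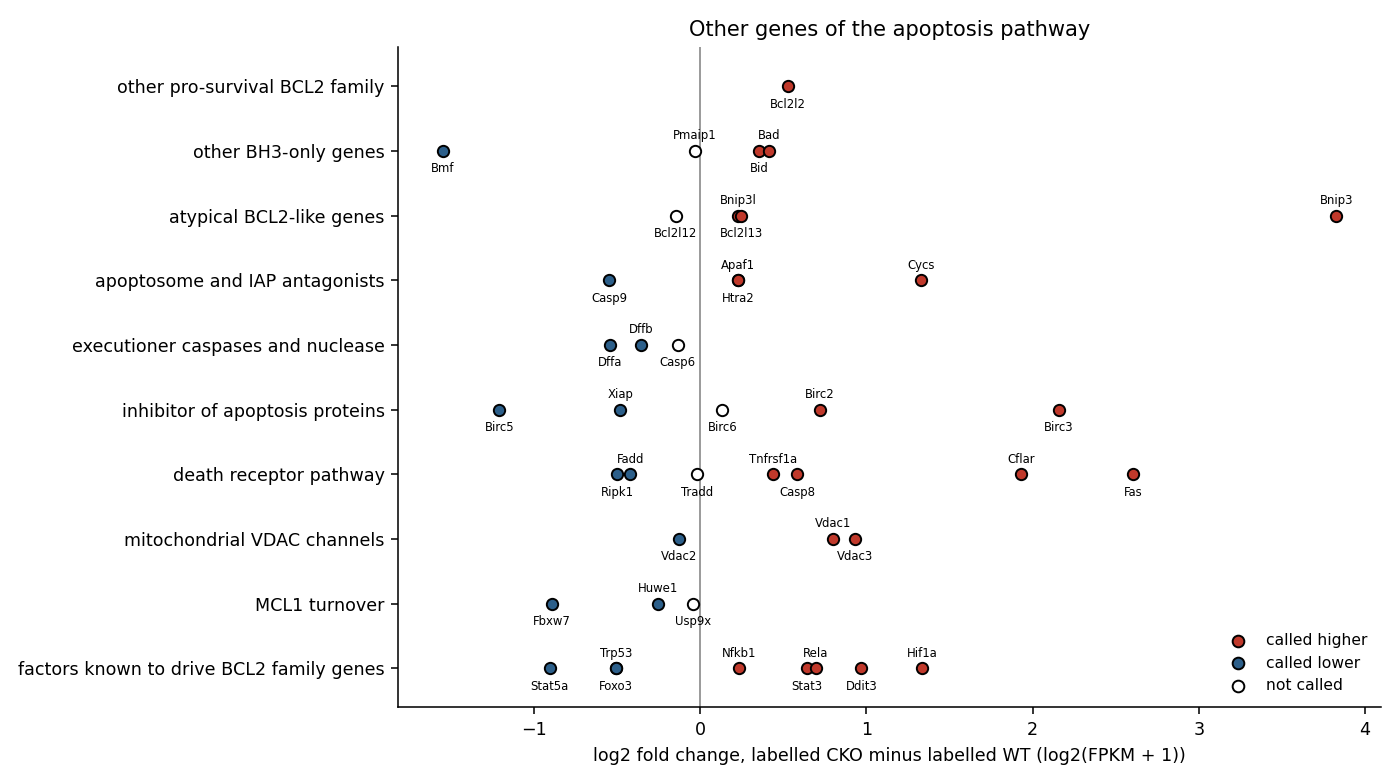
Log2 fold change on log2(FPKM + 1), labelled CKO minus labelled WT, of the 42 tested genes in 10 lists of the apoptosis pathway (rows); red points were called higher, blue points lower and white points were not called at a limma adjusted p under 0.05. Bnip3 (3.83), Fas (2.61), Birc3 (2.16) and Cflar (1.93) lay furthest to the right and Bmf (-1.55) furthest to the left.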

How the data were processed

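Each library had a table of its own, in which the deposited unit was FPKM, per the file headers. Libraries were made with a stranded mRNA kit, per the labels' protocols. The submitters' processing notes name fastp 0.19.3, HISAT2 2.1.0, StringTie 1.3.4d, Cufflinks and featureCounts 1.6.2 among their tools, without roles, and build mm10. FPKM times gene length gave whole reads within 0.01 for 100% of values, so reads could be recovered; all 10 members had the same position in GENCODE M21. Depth was 15422154 to 18418903 reads, so that 3 reads of a 1 kb gene made 0.163 to 0.195 FPKM. These limits cover counting error only.

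The test was limma 3.58.1 in R 4.3.3 (lmFit, eBayes with trend), run on log2(FPKM + 1) of genes that reached 1 FPKM in at least 3 libraries. The model held the group alone, with Benjamini-Hochberg adjustment over all genes tested. The fit was tested on simulated reads. Ratios and sums, promoter matches and figures were made with Python 3.11.15, pandas 2.3.3 and matplotlib 3.10.9. Promoter sequences are from RefSeq (GRCm38.p6), matched by symbol for all 10 members. The members, gene lists and motifs were chosen with earlier results of these data known. Named were all members, and from each pathway list up to 3 genes with the smallest p and any in a count of 5 or fewer. Some genes of the lists are not reported here. A symbol with several rows was read from its only row with reads. Alternatives tried were leaving out each library, a block on replicate number, 2 pseudocounts, 2 filters, 2 scalings, limma voom on recovered reads, and the Bcl2a1 copies summed.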

Additional observations from a re-analysis of the deposited data

How the results depend on the processing

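The 5 members called higher and the 2 called lower kept those calls with pseudocounts of 0.5 and 0.1, either scaling, limma voom on recovered reads, the replicate block and without each library in turn, and so did 6 of these 7 among genes with a mean of at least 5 FPKM, where Bcl2 was not tested. Without 1 library the count stayed at 5 higher and 2 lower in all 6 fits, and that of all genes ran from 7796 to 7874. Bcl2, counted among the 5, had passed the filter solely through the libraries labelled CKO. Bax and Bcl2l1 turned to 0.17 and 0.15 (log2) after median-of-ratios scaling, and among pathway genes Vdac2 turned to 0.055 and Usp9x to 0.13. With no filter Bcl2a1b was tested as well and called higher, at 0.57 (limma adjusted p = 0.0230). Pathway genes were called higher in 22 to 25 cases and lower in 10 to 16 over all settings, and the filters changed which genes were tested. The lowest count, 10, came with a mean of at least 5 FPKM. As deposited 22 were higher and 14 lower, against 30.5% and 50.5% of all tested genes. After median-of-ratios scaling 25 were higher and 12 lower, against 40.8% and 38.9%. After quantile normalization 23 were higher and 13 lower, against 35.9% and 43.5%. On recovered reads, which do not divide by length, the summed pro-survival genes over pore-forming and BH3-only genes came to 7.14 in the libraries labelled CKO and 5.19 in those labelled WT, and Bax over Bak1 came to 0.579 in the libraries labelled CKO and 1.22 in those labelled WT. The values moved by construction, and the groups kept their order. With the replicate block 8041 genes were called, against 8069 without it; deviations of same-numbered libraries correlated at 0.02, 0.01 and -0.04, and 2 of 6 libraries correlated best with their own number, so the numbers were not taken as pairs. Depth limits Bcl2a1b, with 3 to 16 reads a library.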

Other observations

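Spread between libraries of a group was measured on recovered reads as chi-square divided by its degrees of freedom. It averages 1 where counting alone acts, but with 3 libraries a group single values scatter widely around that. Mcl1 reached 24.6 in the libraries labelled CKO and 60.4 in those labelled WT, the highest values of any member in these groups, with 71292 and 57629 reads behind them. At the same relative spread this measure grows with the number of reads, so it does not rank the members by relative spread. The SD of Mcl1 was 3.29% of its mean FPKM in the libraries labelled CKO and 5.57% in those labelled WT. For Bcl2a1d these shares were larger, at 11.0% and 13.7%. Bax, with 2294 and 2424 reads, gave 0.293 in the libraries labelled CKO and 0.949 in those labelled WT, and Bbc3 gave 0.682 and 0.863. Bcl2a1d gave 8.09 in the libraries labelled CKO and 4.83 in those labelled WT. Bak1 and Bcl2l11 gave 4.64 and 2.11 in the libraries labelled CKO and 0.119 and 0.112 in those labelled WT. Bcl2a1b went the other way, at 0.33 in the libraries labelled CKO and 4.76 in those labelled WT, on 44 and 19 reads. These differences between the groups were not tested.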
